A study of Homo sapiens with 6 samples.

Results

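The transcripts of 10 proteins around MAX, the shared partner of the MYC family, were followed in PC3 cells with and without knockdown of CTSZ. They were MYC and MAX, the repressors MXI1, MXD1, MXD3, MXD4, MNT and MGA, and the parallel pair MLX and MLXIP. They were chosen by name, as the rows of a gene table whose Ensembl identifier maps to these symbols. All 10 were found among its 61895 rows, and all 10 were among the 14874 rows kept for testing, whose mean TPM was 1 or more. TPM, a length-scaled transcript abundance with equal totals in all libraries, gives each gene's share of the measured RNA. Levels are set side by side as shares, between genes and between libraries, and a share also depends on the other genes measured.

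MYC is a transcription factor of the basic helix-loop-helix leucine zipper class that binds DNA only as a dimer with MAX. The dimer recognises the E-box CACGTG and recruits acetyltransferases and elongation factors, and it is known for driving ribosome production, nucleotide synthesis and growth. The MXD proteins, MNT and MGA compete for MAX and for the same E-boxes. The MXD proteins and MNT bring SIN3 and histone deacetylases to them, and MGA brings a Polycomb-type complex. MLX is the partner of MLXIP (MondoA), which senses glucose metabolites, and it also dimerises with some MXD proteins and MNT. In prostate cancer, gain and overexpression of MYC are among the best known lesions.

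PC3 is an established line from a bone metastasis of prostate cancer. Cells of both groups had received a lentivirus and antibiotic selection as stable populations. In 3 libraries the virus carried a short hairpin RNA against CTSZ (shCTSZ), the gene of the lysosomal protease cathepsin Z, and in 3 it carried a control (shControl, genotype given as NC). The labels say neither how many hairpin sequences were used nor whether the libraries of a group come from separate cultures, so the p-values rest on a spread that may be technical. The design text gives the aim as CTSZ and cytokine secretion.

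CTSZ was 90.55, 94.71 and 93.17 TPM in the shControl libraries and 21.68, 18.33 and 19.65 TPM in the shCTSZ libraries. It fell by 2.17 on the log2 scale (limma adjusted p = 2.49e-05). Depth cannot be read from TPM, and counting error is therefore not given. Between 24299 and 24714 genes were above 0 in shControl libraries and between 23679 and 24045 in shCTSZ libraries. Mitochondrially encoded genes held 5.10 to 5.38% of TPM in shControl and 6.24 to 6.38% in shCTSZ. KRT8, KRT18, VIM and CD44, which PC3 cells express, were at least 338.69 TPM in every library, while EPCAM reached only 0.22 TPM. The luminal prostate genes KLK2 and TMPRSS2 were at most 0.14 TPM and KLK3 was at 0. Summed markers of leukocytes were 12.14 to 14.81 TPM in shControl and 10.63 to 12.82 TPM in shCTSZ, nearly all of it CD68. Fibroblast markers summed to 0.33 to 1.69 TPM over all libraries, with DCN and LUM at 0, and endothelial markers to 1.24 to 2.32 TPM, with KDR at 0.

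The letters of the E-box are the common thread of the network, so the RefSeq promoter windows (build GRCh38.p14, 250 bases before to 50 after each start) were searched for CACGTG, which reads the same on both strands. Windows were listed for 9 of the 10 members, 14 in all. CACGTG was present in those of MXD4, MNT and MLX, and in 8.77% of the 27305 genes of the whole table. Among the tested genes with a window it was present in 12.4%. The 30 bases around each match are shown for these 3 members, 5′ to 3′ on the gene's strand, with the E-box in capitals. The same is given for UNG and HSPE1, among the most clearly raised genes known to be activated by MYC, and picked because a window of each holds the motif. For NOLC1 and TFRC, also among the most clearly raised, no match was found in a listed window. Activated genes rose both with and without the motif (values below).
MXD4, chr4:2262330-2262359, minus strand: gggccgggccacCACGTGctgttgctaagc
MNT, chr17:2401236-2401265, minus strand: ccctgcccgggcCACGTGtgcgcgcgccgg
MLX, chr17:42567038-42567067, plus strand: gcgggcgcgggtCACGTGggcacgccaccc
UNG, chr12:109097928-109097957, plus strand: ccaaatagcctcCACGTGttcaaaatagcc
HSPE1, chr2:197500345-197500374, plus strand: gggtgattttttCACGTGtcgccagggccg
The motif began 238 bases before the start in MXD4, 193 bases before it in MNT and 50 bases before it in MLX. The windows of MAX, MXI1, MXD1, MXD3, MLXIP and MGA did not hold these letters.

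MXI1 and MXD1 are the members whose transcripts fell (values below), and 150 bases upstream of a start are shown for each. Capitals mark GGGCGG, the GC box letters, which were searched on both strands. They were found in windows of all 9 members and in 77.4% of tested genes with a window, so they set no member apart.
MXI1, chr10:110207455-110207604, plus strand: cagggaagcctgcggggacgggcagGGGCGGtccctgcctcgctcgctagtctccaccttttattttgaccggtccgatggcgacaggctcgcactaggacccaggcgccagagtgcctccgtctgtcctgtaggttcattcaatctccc
MXD1, chr2:69914891-69915040, plus strand: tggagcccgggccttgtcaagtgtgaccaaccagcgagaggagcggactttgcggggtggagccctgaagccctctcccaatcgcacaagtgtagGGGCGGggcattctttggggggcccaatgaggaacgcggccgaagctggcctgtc
The MXI1 stretch ends at the base before the first of its 3 listed starts, and the MXD1 stretch runs from 218 to 69 bases before its start. MXI1 and MGA have 3 listed starts each and MAX has 2. The gene-level TPM cannot tell the starts apart.

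Of the 10 members, 1 rose (MAX), 2 fell (MXI1 and MXD1) and 7 did not pass the test. The test was limma on log2(TPM + 1), adjusted over all 14874 genes at a threshold of 0.05, and each fold change is on that scale. Over all genes tested, 34.5% passed, 19.8% higher and 14.7% lower in shCTSZ, so 3 of 10 is close to the share in the whole table. Groups did not overlap in 4 members (MAX, MXI1, MXD1 and MGA), against 50.3% of all genes. The median log2 fold change was 0.04 in the members and 0.04 in all genes. The count of members past the threshold was 0 without shCTSZ replicate 1 and 1 without replicate 2 or replicate 3 of that group. It was 5 once the trend of each library with GC content and length had been taken out.

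**Figure D1:**
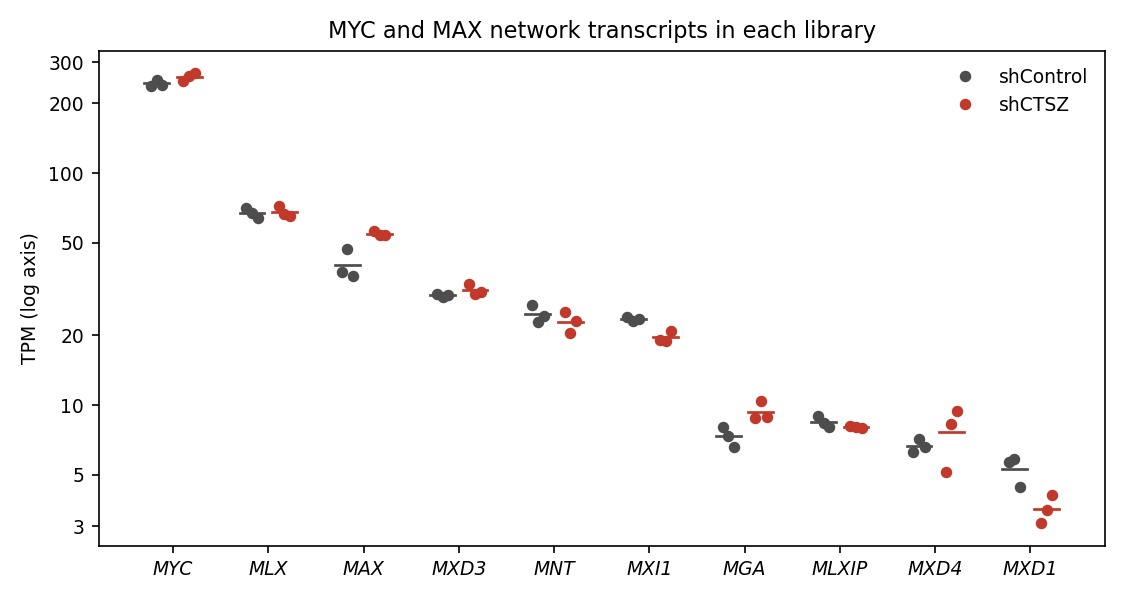
TPM of each network transcript (log axis) in the 3 shControl libraries (grey) and the 3 shCTSZ libraries (red), with points for libraries and short lines for group means, ordered by mean level. MYC lies above 237 TPM in every library and MXD1 is the lowest in both groups; MAX, MXI1, MXD1 and MGA are the members whose groups are apart.

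The members spanned a wide range of levels, in nearly the same order in both groups. In shControl the order of mean TPM was MYC, MLX, MAX, MXD3, MNT, MXI1, MLXIP, MGA, MXD4 and MXD1. Neighbours overlapped there for MNT and MXI1, MLXIP and MGA, and MGA and MXD4. In shCTSZ, MGA stood above MLXIP without overlap, MNT overlapped MXI1 and MLXIP overlapped MXD4, and the other places were as in shControl. MYC was the highest and MXD1 the lowest in each of the 6 libraries.

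MYC itself (chr8:127735434-127741434, plus strand, GENCODE 29 on GRCh38) was at 237.30, 252.49 and 240.52 TPM in shControl and at 248.24, 261.99 and 269.14 TPM in shCTSZ. The groups overlap, since the second shControl library lies above the first shCTSZ library. Means were 243 ± 8 TPM (SD, n = 3) and 260 ± 10.6 TPM (SD, n = 3), a log2 fold change of 0.09 with a 95% interval from -0.01 to 0.19. The limma adjusted p was 0.129, and it ranged from 0.00996 to 0.429 over the alternative settings. MYC passed the threshold in 1 of them, the removal of the GC and length trend, at a log2 fold change of 0.21. In bulk RNA a different number of expressing cells and a different amount of RNA per cell cannot be told apart, for MYC or for any other gene.

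MAX, the shared dimer partner of MYC, the MXD proteins, MNT and MGA, was the member that rose. Its gene (chr14:65006174-65102695, minus strand) gave 37.50, 47.05 and 35.96 TPM in shControl and 56.10, 54.20 and 54.24 TPM in shCTSZ. All shCTSZ libraries are above all shControl libraries, and the shControl libraries are the more spread. The mean went from 40.2 ± 6.01 to 54.8 ± 1.09 TPM (SD, n = 3 each), a log2 fold change of 0.45 (SE 0.0975, limma adjusted p = 0.0124). Without shCTSZ replicate 1 the adjusted p was 0.053 and without replicate 3 it was 0.0502, at log2 fold changes of 0.43 and 0.46. An antisense gene shares 184 exonic bases with MAX, at means of 0.337 and 0.127 TPM.

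The MXD repressors divided. MXI1 and MXD1 fell, and MXD3 and MXD4 did not pass the test. MXD proteins are short-lived dimer partners of MAX that take over E-boxes as cells leave the cycle, and MXD3 is the member known to be made in dividing cells. MXI1 (chr10:110207605-110287365, plus strand) was at 24.06, 23.09 and 23.60 TPM in shControl and 19.15, 18.97 and 20.88 TPM in shCTSZ. Its groups do not overlap, and each is tight. The mean went from 23.6 ± 0.485 to 19.7 ± 1.05 TPM (SD, n = 3 each), a log2 fold change of -0.25 (SE 0.0586, limma adjusted p = 0.016). The adjusted p was 0.0528 without shCTSZ replicate 1 and 0.0571 without replicate 2.

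MXD1 (chr2:69897688-69942945, plus strand), the founding member of the family, was the least abundant. Its libraries gave 5.66, 5.86 and 4.43 TPM in shControl and 3.10, 3.54 and 4.09 TPM in shCTSZ. The groups come close to each other at the third shControl and the third shCTSZ library but do not overlap. At an SE of 0.138, the log2 fold change was -0.46 (limma adjusted p = 0.0381) between means of 5.32 ± 0.774 and 3.58 ± 0.496 TPM (SD, n = 3 each). The call was lost in 7 of 17 alternatives, which were no filter on low values (adjusted p = 0.111), the replicate number as a block (0.0904) and the omission of a library. Without shControl replicate 1 or 2 it was 0.107 or 0.12, and without shCTSZ replicate 1, 2 or 3 it was 0.111, 0.0999 or 0.0517. On the same strand, 237 exonic bases are shared with SNRNP27, a splicing factor gene at 41.4 TPM in shControl and 49.7 TPM in shCTSZ, so some reads could have been divided between them.

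MXD3 (chr5:177301461-177312757, minus strand) was the most abundant of the repressors, at 30.11, 29.29 and 29.86 TPM in shControl and 33.37, 30.11 and 30.83 TPM in shCTSZ. The groups touch at 30.11 TPM. The log2 fold change was 0.08 (95% interval -0.05 to 0.21, limma adjusted p = 0.325), and it was 0.26 with an adjusted p of 0.0192 after the GC and length trend was removed. Its exons overlap those of RAB24 over 926 bases on the same strand and of PRELID1 over 1158 bases on the other strand. PRELID1 is the more abundant of these, at 310 and 351 TPM, and whether strand was used in counting is not given in the sources used here. MXD4 (chr4:2247432-2262294, minus strand) was at 6.27, 7.12 and 6.62 TPM in shControl and at 5.17, 8.32 and 9.41 TPM in shCTSZ. Its shCTSZ libraries lie on both sides of the shControl libraries, and the interval of the log2 fold change ran from -0.31 to 0.59 (limma adjusted p = 0.61).

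Within the MXD genes, the 2 that fell are also the lower in GC content. The median over a gene's transcripts was 44.7% for MXD1, 47.4% for MXI1, 62.3% for MXD4 and 65.3% for MXD3. Among the other members, MGA was at 42.8% with a log2 fold change of 0.32, and MAX at 51.3% with 0.45. MLX was at 54.1% (0.01), MLXIP at 57.9% (-0.07), MYC at 58.7% (0.09) and MNT at 63.6% (-0.10). With the GC and length trend removed together, the log2 fold change was -0.58 for MXD1 (from -0.46) and -0.34 for MXI1 (from -0.25). It was 0.26 for MXD3 (from 0.08) and 0.33 for MXD4 (from 0.14). The part of base composition in the remaining differences was not tested.

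**Figure D2:**
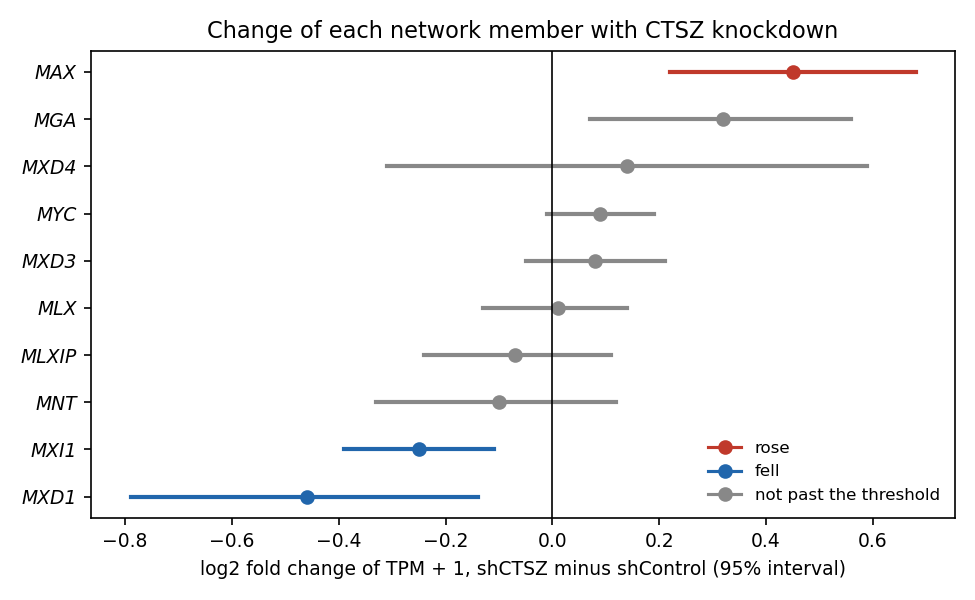
Log2 fold change of TPM + 1, shCTSZ minus shControl, for each network member (points) with its 95% interval from limma (lines); red rose, blue fell, grey did not pass the threshold. MAX lies at 0.45, MXD1 at -0.46 and MXI1 at -0.25, while the intervals of MYC, MXD3, MXD4, MNT, MLX and MLXIP include 0.

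MNT and MGA are the larger MAX partners. MNT, a repressor made at similar levels in resting and dividing cells (chr17:2384060-2401118, minus strand), was at 26.95, 22.72 and 24.20 TPM in shControl and 25.25, 20.38 and 23.14 TPM in shCTSZ. The groups overlap, with the first library the highest and the second the lowest in each. The log2 fold change was -0.10 (95% interval -0.33 to 0.12, limma adjusted p = 0.444), and it turned to 0.11 after the GC and length trend was removed. An antisense gene shares 1065 exonic bases with MNT and had means of 3.78 and 1.56 TPM.

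MGA, the scaffold of a Polycomb-type complex (chr15:41621224-41773081, plus strand), was at 8.08, 7.34 and 6.59 TPM in shControl and 8.79, 10.44 and 8.90 TPM in shCTSZ. All shCTSZ libraries lie above the shControl libraries. Means were 7.34 ± 0.745 and 9.38 ± 0.923 TPM (SD, n = 3 each), at a log2 fold change of 0.32 (SE 0.103, 95% interval 0.07 to 0.56). The limma adjusted p was 0.0514, just over the threshold. It was under the threshold in 4 alternatives, from 0.0411 for a fit of protein-coding genes alone to 0.0478 for a pseudocount of 0.1. With the GC and length trend removed the log2 fold change was 0.12 and the adjusted p 0.305.

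MLX and MLXIP form the branch that answers to glucose. MLX (chr17:42567068-42573239, plus strand) was second in level to MYC, at 70.96, 67.28 and 64.10 TPM in shControl and 71.83, 66.73 and 65.00 TPM in shCTSZ. The groups cover nearly the same range. The log2 fold change was 0.01 (95% interval -0.13 to 0.14, limma adjusted p = 0.925). Its exons overlap those of PSMC3IP, on the other strand, over 770 bases. MLXIP (chr12:122078722-122147347, plus strand) was at 8.94, 8.39 and 8.05 TPM in shControl and 8.10, 8.01 and 7.99 TPM in shCTSZ. The shCTSZ libraries sit at or just below the low end of the shControl range, with a log2 fold change of -0.07 (95% interval -0.24 to 0.11, limma adjusted p = 0.519).

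Set against its MXD antagonists within each library, MYC was somewhat higher in shCTSZ. The ratio of MYC TPM to the summed TPM of MXD1, MXI1, MXD3 and MXD4 was 3.59, 3.863 and 3.728 in shControl and 4.084, 4.299 and 4.127 in shCTSZ. All shCTSZ libraries are above all shControl libraries. On the log2 scale the means were 1.9 ± 0.0529 and 2.06 ± 0.0392 (SD, n = 3 each), a difference of 0.162. It ranged from 0.14 to 0.20 over 11 alternatives, some of which could not move it. Median-of-ratios scaling and rescaling without mitochondrially encoded genes or to protein-coding genes apply a constant to each library. Such a constant cancels in a ratio, so the range comes from quantile normalisation, removal of the GC and length trend, and omission of a library. A ratio over members chosen with results in view carries no p-value here. The summed MXD TPM alone was 66.1, 65.36 and 64.51 in shControl and 60.79, 60.94 and 65.21 in shCTSZ, and its groups overlap through the third shCTSZ library.

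The make-up of that sum follows from the calls above, since MXD1 and MXI1 were paired because both fell. The values are a description and add no support to those calls. MXD1 and MXI1 together held 44.96, 44.29 and 43.45% of the summed MXD TPM in shControl and 36.6, 36.94 and 38.29% in shCTSZ. No library crosses between the groups, with means of 44.2 ± 0.757% and 37.3 ± 0.895% (SD, n = 3 each). The pair summed to 28.9 ± 0.846 TPM in shControl and 23.2 ± 1.5 TPM in shCTSZ, while MXD3 and MXD4 summed to 36.4 ± 0.0513 and 39.1 ± 1.01 TPM (SD, n = 3 each).

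Set against MAX, which rose, MYC was lower in shCTSZ, although MYC alone did not pass the test. The ratios to MAX below follow from the call of MAX and add no support to it. The ratio of MYC TPM to MAX TPM was 6.328, 5.366 and 6.689 in shControl and 4.425, 4.834 and 4.962 in shCTSZ. The groups do not overlap, with means of 6.13 ± 0.683 and 4.74 ± 0.28 (SD, n = 3 each). All transcripts of MAX partners together (MYC, the 4 MXD genes, MNT and MGA) were 8.59 ± 1.04 times the MAX TPM in shControl and 6.47 ± 0.324 times in shCTSZ (SD, n = 3 each). MYC made up 71.4 ± 1.24% of this partner pool in shControl and 73.3 ± 0.863% in shCTSZ (SD, n = 3 each), and those groups overlap. These are ratios of RNA, and protein levels were not analysed here.

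**Figure D3:**
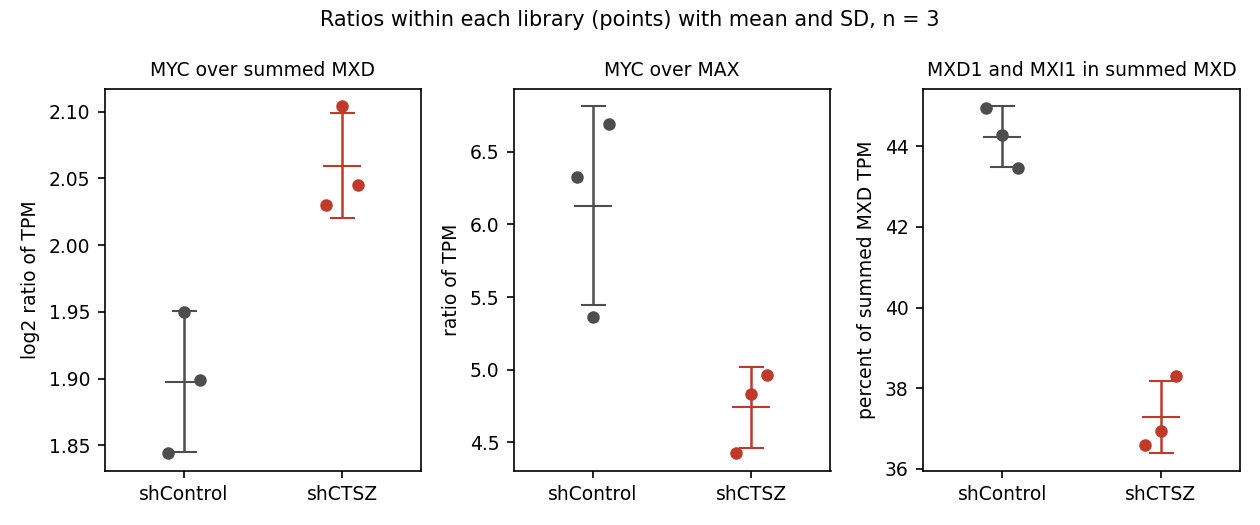
Ratios within each library (points) with group mean and SD (n = 3): log2 of MYC over summed MXD TPM, MYC over MAX TPM, and the percent of summed MXD TPM held by MXD1 and MXI1; axes do not start at 0. The shCTSZ libraries are above shControl in the first panel (2.06 against 1.9) and below it in the second (4.74 against 6.13) and the third (37.3 against 44.2%).

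The 5 genes whose log2(TPM + 1) followed MYC most closely over the 6 libraries were TM9SF1 (Pearson r = 0.991), GNPAT (0.989), RAD17 (0.982), EEF1A1P5 (0.978) and CNOT11 (0.975). They were taken from 10675 genes whose mean was 5 TPM or more, of which 32 reached an r of 0.95. The libraries share the group difference, and 6 points over so many genes give high values readily, so the list is a description. TM9SF1 encodes an endosomal membrane protein and RAD17 a DNA damage checkpoint loader, while EEF1A1P5 is a pseudogene whose reads may come from its near-identical parent.

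Relatives outside the 10 members were low. MYCN was at 0 in all libraries. MYCL, the third MYC gene, was at 4.54, 3.16 and 4.20 TPM in shControl and 1.46, 2.14 and 2.06 TPM in shCTSZ, with no overlap. It fell by 0.78 on the log2 scale (SE 0.169, limma adjusted p = 0.0122). MLXIPL (ChREBP), the sister of MLXIP, was at 1.49 ± 0.159 and 0.75 ± 0.565 TPM (SD, n = 3 each) with overlapping groups (limma adjusted p = 0.143).

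Of 9 other tested E-box factors of the wider basic helix-loop-helix class, 4 fell and 0 rose (44.4% called, against 34.5% of all genes). Their median log2 fold change was -0.11, against 0.04 over all genes. With median-of-ratios scaling 6 fell, and with quantile normalisation 5 fell and 1 rose. After the GC and length trend was removed 3 fell, at a median of -0.02 against 0.03 over all genes. With no filter 3 of 10 fell, and 3 or 4 fell when 1 library was left out. SREBF1, a regulator of fatty acid synthesis genes, was at 152.83, 149.53 and 143.64 TPM in shControl and 98.70, 110.55 and 113.65 TPM in shCTSZ (log2 fold change -0.46, limma adjusted p = 0.00177). TFAP4, itself known as a direct MYC target, was at 21.50, 21.15 and 21.80 TPM and then 14.51, 15.87 and 13.59 TPM (log2 fold change -0.52, limma adjusted p = 0.00201). Both were lower in every shCTSZ library than in any shControl library. SREBF2, the regulator of cholesterol synthesis genes, fell by 0.20 on the log2 scale (limma adjusted p = 0.0124). TFEB, a regulator of lysosomal genes, fell by 0.63 from a mean of 3.14 TPM (limma adjusted p = 0.0374), a call lost in 7 of 17 alternatives.

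Of 18 genes of the corepressor complexes through which MXD proteins and MNT act, 2 rose and 2 fell (22.2% called, against 34.5% of all genes). Their median log2 fold change was 0.04, the same as over all genes. The 4 calls became 7 (2 rose and 5 fell) with median-of-ratios scaling, 1 without shControl replicate 2 or shControl replicate 3, and 2 without shCTSZ replicate 1. RBBP4, a histone-binding subunit shared with many chromatin complexes, was at 76.45, 75.39 and 73.90 TPM in shControl and 111.53, 123.36 and 119.04 TPM in shCTSZ, at a log2 fold change of 0.64 (limma adjusted p = 0.000266). SUDS3 rose by 0.28 on the log2 scale (limma adjusted p = 0.0277), a call lost in 9 of 18 alternatives. The SIN3 subunit SAP30 was at 18.98, 21.63 and 19.65 TPM in shControl and 15.09, 14.85 and 17.23 TPM in shCTSZ. Its groups do not overlap, and it fell by 0.34 on the log2 scale (limma adjusted p = 0.0183), a call lost in 4 of 18 alternatives.

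In the Polycomb-type complex built on MGA, 4 of 10 other subunits rose and 1 fell, with a median log2 fold change of 0.08. Over all genes 19.8% rose and 14.7% fell, with a median of 0.04. The 5 calls became 3 with no filter, with the GC and length trend removed, and without shControl replicate 2, shControl replicate 3, shCTSZ replicate 1 or shCTSZ replicate 3. L3MBTL2, a chromatin reader, was at 14.12, 14.40 and 14.16 TPM in shControl and 18.92, 18.23 and 18.38 TPM in shCTSZ (log2 fold change 0.36, limma adjusted p = 0.00322). TFDP1, the dimer partner of E2F6, rose by 0.36 on the log2 scale from a mean of 44 to 56.8 TPM (limma adjusted p = 0.00173). PCGF6 rose by 0.27 (limma adjusted p = 0.0254), a call lost in 7 of 18 alternatives. RING1, a ubiquitin ligase subunit, fell by 0.24 from 58 to 49 TPM (limma adjusted p = 0.0122), and was no longer called once the GC and length trend was removed (adjusted p = 0.173).

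Among 19 coactivators and cofactors of MYC, 9 rose and 3 fell (63.2% called, against 34.5% of all genes), with a median log2 fold change of 0.12. The number that rose was 5 without shCTSZ replicate 3, where 4 fell, and 5 with no filter. CCNT1, the cyclin of the elongation kinase P-TEFb, was at 12.91, 12.12 and 10.59 TPM in shControl and 19.92, 20.42 and 22.45 TPM in shCTSZ (log2 fold change 0.77, limma adjusted p = 0.00116). ACTL6A, an actin-like subunit of acetyltransferase and remodelling complexes, rose by 0.29 (limma adjusted p = 0.00255). The acetyltransferase KAT2A fell by 0.40 and the elongation factor subunit PAF1 fell by 0.26 on the log2 scale (limma adjusted p = 0.00177 and 0.0023). These 4 calls held in all 18 alternatives run.

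Genes that set the stability of MYC protein gave 5 rises and 2 falls among 22 (31.8% called, close to the 34.5% of all genes). PPP2CA, a catalytic subunit of the phosphatase that acts on phosphorylated MYC, was at 208.70, 197.53 and 203.17 TPM in shControl and 264.30, 261.14 and 269.51 TPM in shCTSZ (log2 fold change 0.38, limma adjusted p = 0.000476). TRIM32, a ubiquitin ligase reported to act on MYC, rose by 0.53 (limma adjusted p = 0.00269). AURKA, a mitotic kinase that can stabilise MYC family proteins, rose by 0.25 (limma adjusted p = 0.00205), with an adjusted p of 0.0587 after removal of the GC and length trend. The kinase PIM1 fell by 0.55 from 24.1 to 16.1 TPM (limma adjusted p = 0.00352).

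Of 19 tested regulators of MYC transcription and mRNA, 4 rose and 3 fell (36.8% called, close to the 34.5% of all genes). E2F1, a cell cycle transcription factor, went from 37 to 51.5 TPM (log2 fold change 0.47, limma adjusted p = 0.000722). CTNNB1, the Wnt pathway effector beta-catenin, went from 116 to 151 TPM (0.38, adjusted p = 0.000887). FUBP1, a protein that binds an element upstream of MYC, went from 68.4 to 95.3 TPM (0.47, adjusted p = 0.000947). PVT1, the long noncoding RNA gene next to MYC, was at 78.19, 79.69 and 75.04 TPM in shControl and 58.49, 63.28 and 61.66 TPM in shCTSZ. Its groups do not overlap, and it fell by 0.34 on the log2 scale (limma adjusted p = 0.00237).

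Genes known to be activated by MYC were read as 1 list of 56, all tested. Of these, 21 rose, 3 fell and 32 did not pass the test. Log2 fold changes were above 0 in 40 of 56, against 8280 of 14874 over all genes. The share called was 42.9%, against 34.5% of all genes, and the median log2 fold change was 0.08, against 0.04. With median-of-ratios scaling 15 rose and 7 fell, at a median of 0.03 against -0.00 over all genes in that setting. With the GC and length trend removed 25 rose and 4 fell, at a median of 0.12 against 0.03. UNG, a DNA repair glycosylase, was at 35.04, 34.32 and 32.68 TPM in shControl and 55.52, 51.72 and 54.12 TPM in shCTSZ (log2 fold change 0.65, limma adjusted p = 0.000341). NOLC1, a nucleolar assembly protein, went from 115 to 158 TPM (0.46, adjusted p = 0.00111). TFRC, the transferrin receptor, went from 13.5 to 19.8 TPM (0.52, adjusted p = 0.00111). HSPE1, a mitochondrial chaperonin, went from 236 to 309 TPM (0.38, adjusted p = 0.00134).

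Activated genes rose both with and without an E-box in the window. A promoter window was listed for 50 of the 56, and 28 of these (56%) held CACGTG. Of these 28, 9 rose and 2 fell, with a median log2 fold change of 0.07. Of the 22 whose windows did not hold it, 10 rose and 1 fell, with a median of 0.09. Over all tested genes with a window, 25.7% of those with CACGTG rose and 22.5% of those without it. No test was made of these shares.

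Genes known to be repressed by MYC gave 3 rises and 6 falls among 15 tested, with a median log2 fold change of -0.25. Over all genes 19.8% rose and 14.7% fell. THBS1, an inhibitor of angiogenesis, was at 77.63, 75.80 and 63.81 TPM in shControl and 208.55, 202.89 and 212.68 TPM in shCTSZ (log2 fold change 1.51, limma adjusted p = 8.32e-05). The falls included the growth arrest genes BTG1, from 56.3 to 34.8 TPM (-0.68, adjusted p = 0.000655), and GADD45A, from 1284 to 953 TPM (-0.43, adjusted p = 0.000774). The cyclin kinase inhibitor CDKN1A went from 394 to 324 TPM (-0.28, adjusted p = 0.000949). Without shControl replicate 1, shControl replicate 3 or shCTSZ replicate 2, 3 of the 15 fell. Of 4 targets of MLXIP 1 rose (25%, against 19.8% of all genes). This was KLF10, from 21.9 to 25.4 TPM (0.20, adjusted p = 0.0308), a call lost in 8 of 18 alternatives.

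**Figure D4:**
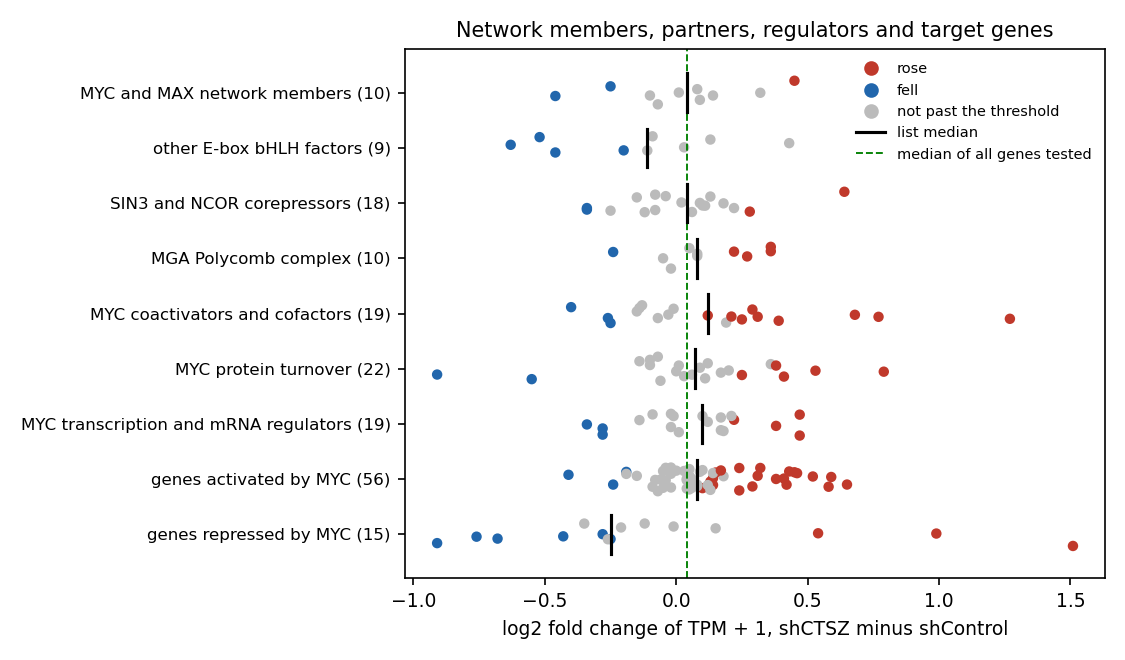
Log2 fold change of TPM + 1, shCTSZ minus shControl, of each tested gene (points, spread vertically for visibility) in the members and 8 lists of partners, regulators and targets, with the number tested in brackets; black bars are list medians and the green dashed line the median of all genes. Member and corepressor medians lie at 0.04, on the line for all genes, while the list of genes repressed by MYC has its median at -0.25 and THBS1 at 1.51.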

How the data were processed

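RNA from 6 PC3 libraries (3 shControl, 3 shCTSZ) was measured with a SMARTer mRNA kit, per the labels' protocols. The authors deposited 1 table of TPM; fastp, RSEM and build GRCh38.p13 are named in the submitters' processing notes. For the aligner, annotation release and strand setting, the sources used here say nothing. RSEM divides reads of overlapping or near-identical genes by estimate.

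Rows with a mean of at least 1 TPM (14874) entered limma 3.58.1 (R 4.3.3) as log2(TPM + 1). The model held group alone, moderation followed the mean-variance trend, and Benjamini-Hochberg adjustment ran over all rows kept, at 0.05. The fold change of low genes is understated by the pseudocount. An exact permutation test of 3 against 3 cannot reach a p below 0.1 and was not used. The fit was also run on simulated data with independent noise and far fewer changed genes than were called here. That setting differs from these data, so no result is drawn from it. Tables and plots used Python 3.11.15, pandas 2.3.3 and matplotlib 3.10.9.

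Positions, GC content and exon overlaps came from GENCODE 29 (GRCh38), and promoter sequences from RefSeq. Members and lists were chosen with earlier results of these data known, so counts are read beside those of all genes. The genes named are the members, CTSZ, in each list up to 4 called genes of smallest adjusted p (2 by level where none passed), and the 5 most like MYC; relatives, markers and overlapping genes are given as values. Some genes of the lists are not reported here by name. Alternatives changed the pseudocount, filter, scaling, moderation, library weights, GC and length trend, gene types, replicate block and the set of libraries.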

Additional observations from a re-analysis of the deposited data

How the results depend on the processing

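The 18 alternatives called 3717 to 5335 genes and 56 to 79 genes of the other lists. Network members past the threshold numbered 5 with the GC and length trend removed (MYC, MAX, MXI1, MXD1 and MXD3; MYC at a log2 fold change of 0.21, adjusted p = 0.00996), and 0 to 3 when 1 library was left out. MXD repressors past the threshold were 1 with no filter, 1 of 3 tested at a mean of at least 5 TPM, and 0 to 2 when 1 library was left out. Same-numbered libraries did not deviate together (correlations -0.09, -0.02 and -0.04), and none correlated best with its own number. No pairing by number was seen, but with 3 libraries in each group a weak pairing could be missed. With the replicate number as a block, 4026 genes and 1 MXD repressor passed. Among members not called, the sign of the log2 fold change turned for MNT (0.11) and MLXIP (0.03) with the GC and length trend removed, and for MXD4 when 1 library was left out (-0.01 to 0.36). MLX turned with median-of-ratios scaling (-0.04), quantile normalisation (-0.02), the trend removed (-0.00), library weights (-0.00), and when 1 library was left out (-0.03 to 0.05). The causes were not tested. For 2 ratios whose alternatives were chosen after seeing the data, removing the trend moved the difference in MYC over MAX from -1.39 to -0.74 and that in the percent held by MXD1 and MXI1 from -6.96 to -11.88. Leaving out 1 library gave -1.77 to -1.11 and -7.47 to -6.59. Median-of-ratios scaling gave 2463 genes higher and 2661 lower, against 2950 and 2185. The depth is unknown, so low genes such as MXD1 carry a counting error that could not be computed.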

Other observations

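The following genes were named after their values were seen. CREBBP, an acetyltransferase that MYC recruits, was at 23.72, 22.31 and 21.57 TPM in shControl and at 64.89, 28.59 and 93.25 TPM in shCTSZ. The shCTSZ libraries were all above shControl but far apart from each other (62.2 ± 32.4 TPM, SD, n = 3), at a log2 fold change of 1.27 (limma adjusted p = 0.0374). Its relative EP300 went from 31.1 ± 3.84 to 40.9 ± 1.81 TPM (SD, n = 3 each; limma adjusted p = 0.0171).

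Well-known targets of MYC were among those that did not pass the test. NCL, a nucleolar protein, was at 690 ± 15.2 and 673 ± 5.43 TPM (limma adjusted p = 0.333). ODC1, the polyamine synthesis enzyme, was at 251 ± 7.19 and 244 ± 5.28 TPM (adjusted p = 0.358), and the kinase CDK4 at 188 ± 3.84 and 193 ± 5.25 TPM (adjusted p = 0.428; SD, n = 3 each). The groups overlapped in all 3 genes.

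TXNIP and ARRDC4, the arrestin genes best known as targets of MLXIP, were low. TXNIP was at 2.56, 1.14 and 1.38 TPM in shControl and 0.88, 0.44 and 0.45 TPM in shCTSZ, and ARRDC4 at 5.08, 4.73 and 3.79 TPM and then 3.31, 3.24 and 3.55 TPM. Neither pair of groups overlaps, and neither gene passed the test (limma adjusted p = 0.0664 and 0.0766).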
